A study of Mus musculus with 6 samples.

Results

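The transcription factor genes Neurod1, Neurog3, Insm1, Myt1, St18, Foxa1, Foxa2, Rfx3 and Rfx6, which specify or maintain pancreatic endocrine cells, were examined for MafA binding and for the histone mark H3K4me3. They were chosen by name, and every peak in the gene body or within 50 kb either side was taken. All 9 were found among the 21887 protein-coding genes of the annotation, and no MafA region lay in more than 1 of their windows. The material was MIN6, an insulin-producing line derived from a mouse insulinoma and used as a stand-in for beta cells, and the labels name no transgene, drug or time point. In CUT&RUN, an antibody bound in permeabilised cells tethers a nuclease, and the DNA it frees is sequenced. Each sample held 500000 cells. The 3 groups held 2 samples each and differed in the antibody: MafA (endogenous protein), H3K4me3 as positive control, or IgG as negative control. Peak lists of the 4 MafA and H3K4me3 libraries were analysed, and no IgG file was used here. Whether replicates came from separate cultures is not given in the labels, so their spread may be technical.

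MafA is a basic leucine zipper factor that binds MAF recognition elements and activates the insulin genes in mature beta cells. The basic helix-loop-helix (bHLH) factor Neurog3 starts the endocrine programme in progenitors and is then switched off, while its target Neurod1 stays on and takes part in insulin gene activation. Insm1, Myt1 and St18 are zinc finger factors, the forkhead factors Foxa1 and Foxa2 open chromatin in endoderm, and the winged-helix factors Rfx3 and Rfx6 act in islet development. H3K4me3 marks the starts of genes that are transcribed or poised.

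The deposited lists held 16020 and 16904 H3K4me3 peaks and 33013 and 42747 MafA peaks in replicates 1 and 2. The median number of fragments piled up at a summit, recovered from the deposited values, was 759 and 263 for H3K4me3 and 25 and 46 for MafA. As a check of the labelled cell type, an H3K4me3 region lay within 1 kb of a start of 7 of 8 beta cell markers, all but Ins1. It lay at 1 of 6 markers of other islet cells, Gcg, and at 0 of 5 acinar and duct, 0 of 2 liver and 0 of 2 fibroblast and blood markers. The share over all protein-coding genes was 57.8%. A region here is the union of peaks of both replicates that overlap by at least 1 bp, and fold enrichment is the authors' value at the summit of each library's strongest peak in it. There were 25894 MafA and 15573 H3K4me3 regions in all.

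MafA regions were found at 7 of the 9 genes, and at none of Neurog3 and Foxa1. This share was close to the background, since 66.1% of all protein-coding genes had a MafA region in the same kind of window. Among genes with an H3K4me3 region within 1 kb of a start, the background was 84.2%, against 6 of 7 here. The windows held 42 MafA regions, with 14 at Rfx3, 7 at Neurod1, 6 at Rfx6, 4 each at Foxa2, Myt1 and St18, and 3 at Insm1. For 34 of the 42 the factor gene was the nearest protein-coding gene, and 8 lay nearer to or inside a neighbour. A region lay inside the gene body at 6 of the 9, against 31.7% of all protein-coding genes, and the bodies ranged from 1.67 kb (Neurog3) to 374 kb (St18). Another 8 peaks in MafA replicate 1 and 18 in replicate 2 had no partner in the other replicate.

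**Figure D1:**
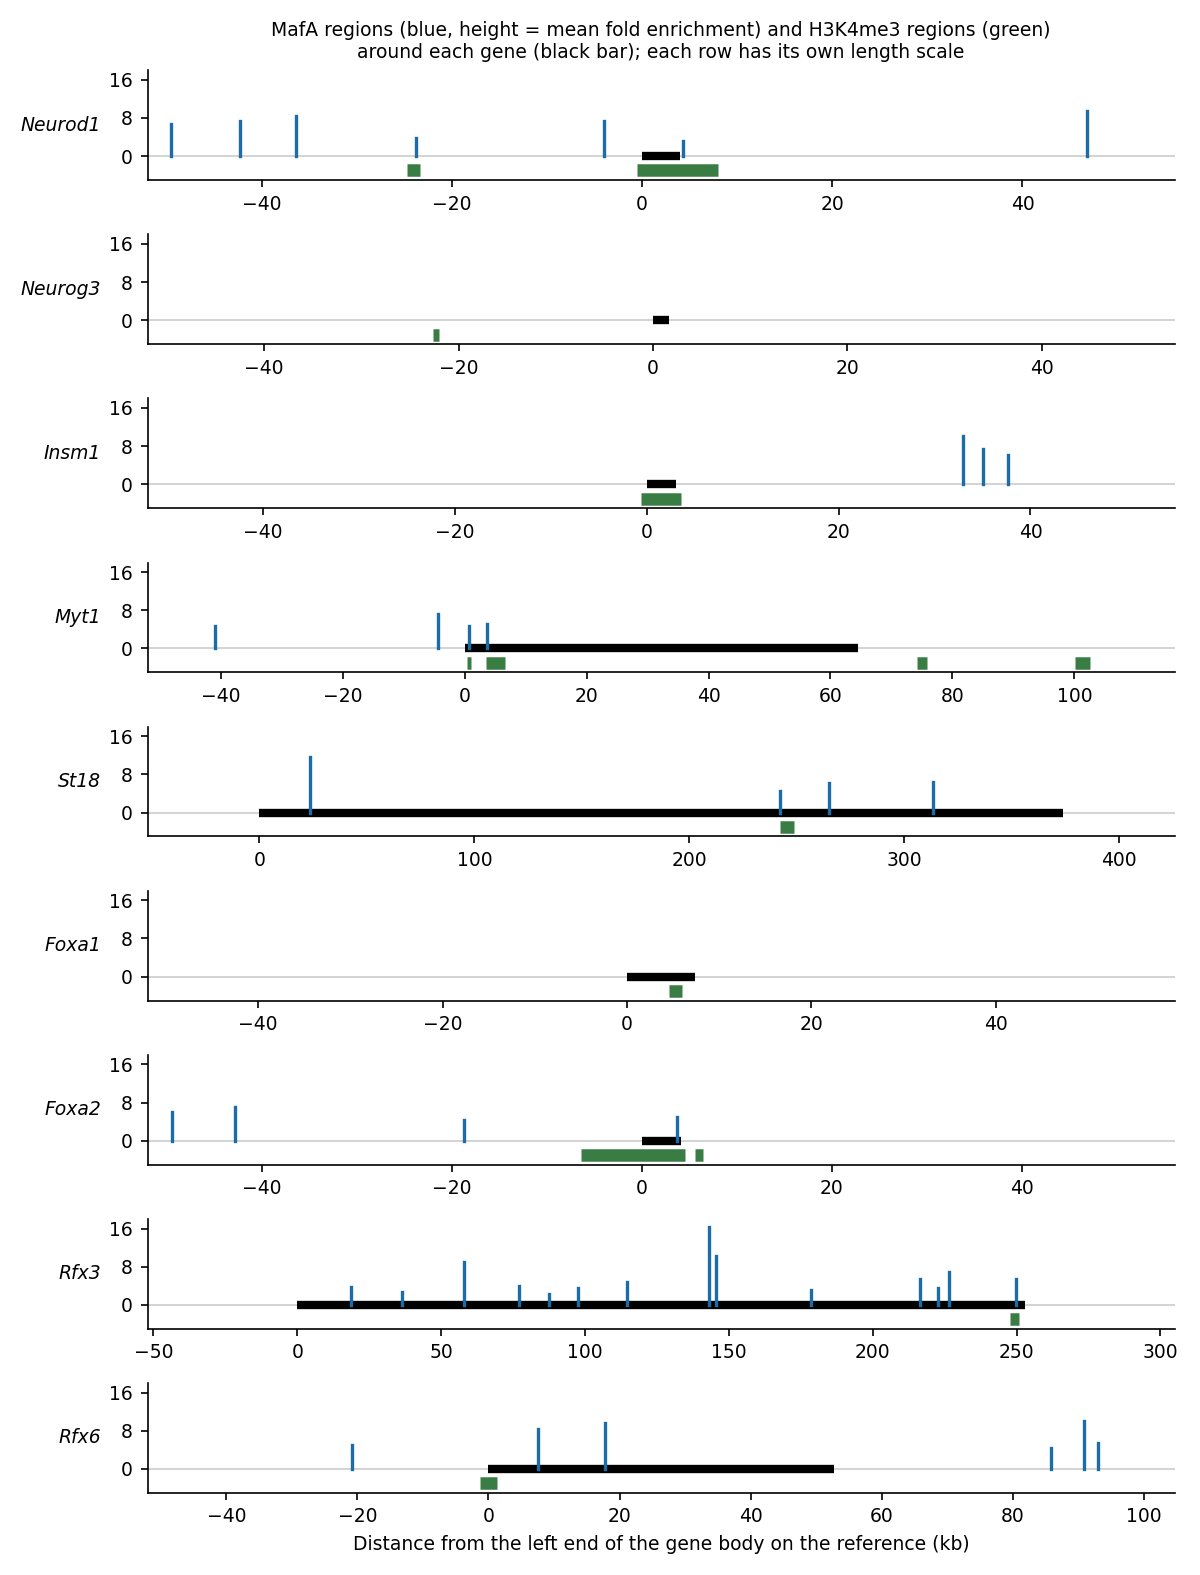
Position of each region in kb from the left end of the gene body (black bar), 1 row per gene with its own length scale. Blue lines are MafA regions with height equal to mean fold enrichment of 2 replicates, and green bars are H3K4me3 regions. Neurog3 and Foxa1 have no blue line, and the 14 lines of Rfx3 all stand inside the gene.

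The pooled median fold enrichment of these regions was close to that of all MafA regions, 5.70 against 5.75. They spanned percentiles 0.552 to 95.7 of all regions. The pooled value hides a split between Rfx3 and the other genes. The 14 regions at Rfx3, where the background was raised, had a median of 4.38 and a median percentile of 24.6. The other 28 regions had a median of 6.35 and a median percentile of 58.9. Both sets were called against unlike backgrounds, so these medians are not of peaks held to an equal limit of fold enrichment. One region, inside Rfx3, lay at or above the 90th percentile. Such a region was found at 1 of 9 factor genes and at 13.7% of all protein-coding genes. By number of regions per 100 kb of window, Neurod1 stood at 6.73, percentile 99.1 of all protein-coding genes. Of its 7 regions, 3 remained where Neurod1 had to be the nearest gene, since the others lay nearer to Cerkl. Rfx3 at 3.97, Rfx6 at 3.93 and Foxa2 at 3.84 stood between percentiles 92.4 and 93.4. The value of Rfx3 counts all 14 of its regions, of which 9 still passed after scaling for a raised background, as described below. Insm1 had 2.91, Myt1 2.43 and St18 0.844, and the median gene had 0.925.

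**Figure D2:**
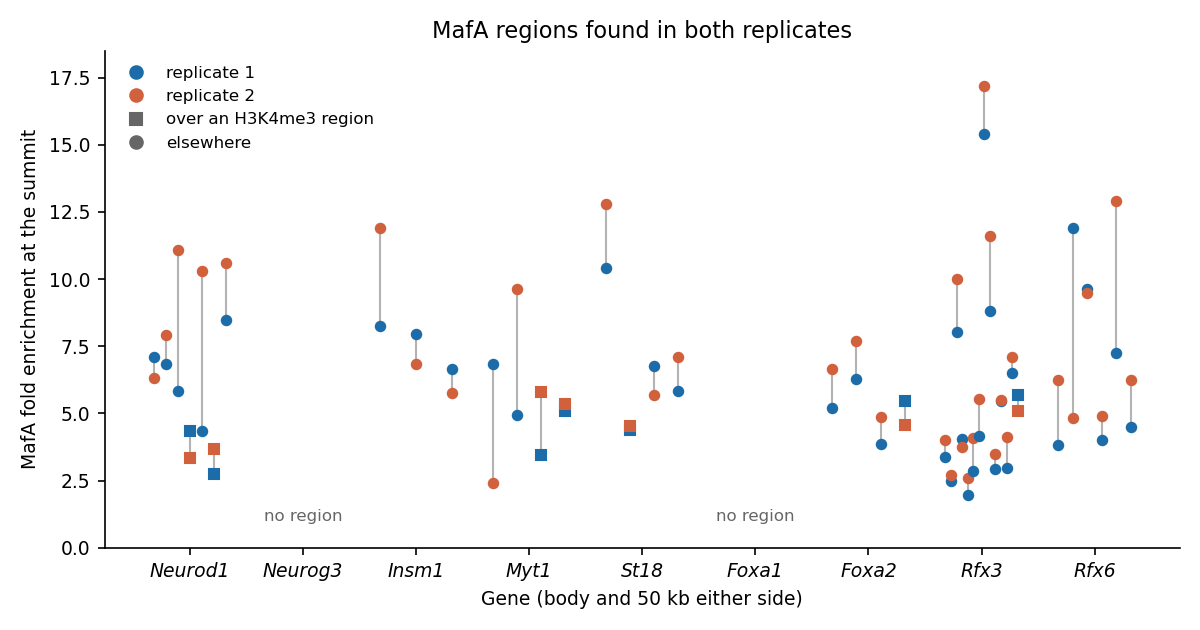
MafA fold enrichment of each of the 42 regions, by gene and in order of position. Blue is replicate 1, orange replicate 2, a line joins the pair, squares overlap an H3K4me3 region and circles do not. The pair at 15.4 and 17.2 in Rfx3 stands above the rest, and 3 pairs differ by more than 2 times.

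H3K4me3 was found within 1 kb of a start of 7 of the 9 genes, against 57.8% of all protein-coding genes. Neurog3 and St18 were the exceptions. For St18 no start sites were given, so only its outer ends were checked, and an H3K4me3 region inside it is described below. At Foxa2, the region on chromosome 2 from 148036534 to 148047483 was 10.9 kb wide, with fold enrichment of 22.4 and 21.8 in replicates 1 and 2. At Neurod1 it ran from 79452130 to 79460600 on chromosome 2, 8.47 kb wide, with 17.5 and 14.7. It was 1 peak in replicate 1 and 3 peaks in replicate 2. Both regions covered the whole gene, and the median width of all H3K4me3 regions was 1837 bp. Insm1 was covered by a region of 4.14 kb with 26.7 and 21.9, the highest fold enrichment among the factor genes. An internal start of Rfx3 carried 23.8 and 19.4, an internal start of Myt1 12.0 and 13.7, the outer start of Rfx6 11.2 and 10.6, and the start of Foxa1 7.57 and 8.23. The median over all H3K4me3 regions was 14.9 (mean of replicates), and the regions of Insm1, Foxa2, Rfx3 and Neurod1 were above it and those of Myt1, Rfx6 and Foxa1 below. The Foxa1 region also lay within 1 kb of Ttc6, so it cannot be given to Foxa1 alone. In the window of Neurog3, the one H3K4me3 region (9.74 and 10.9) lay at the neighbour Fam241b.

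**Figure D3:**
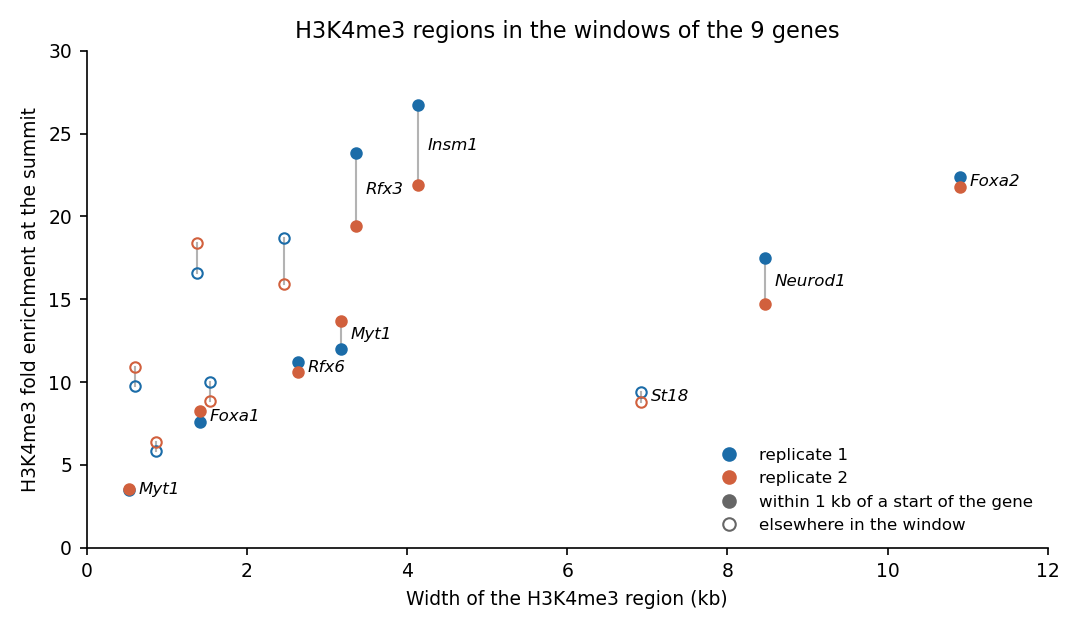
Width of each of the 14 H3K4me3 regions in kb against its fold enrichment in replicate 1 (blue) and replicate 2 (orange). Filled points lie within 1 kb of a start of the gene named beside them, and open points lie elsewhere. Foxa2, Neurod1 and St18 stand to the right with widths of 10.9, 8.47 and 6.92 kb.

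Start sites were not given for Insm1 and St18, so only the outer ends of those genes were checked. A MafA region lay within 1 kb of an annotated start of 5 of the 9 genes, Neurod1, Myt1, Foxa2, Rfx3 and Rfx6, and of 20.4% of all protein-coding genes. For these 5 the windows that a MafA region overlapped are shown, 2 of them at Foxa2, to place the MafA summits against them. Each window holds 250 bases before and 50 after a RefSeq start (GRCm38.p6), 5′ to 3′ along the gene. Capitals mark the letters TGCTGA (the core of a MAF recognition element, TCAGCA on the other strand, with TGCTGAC as its longer form), TGTTTAC (forkhead, GTAAACA on the other strand) and GTTGCC (the core of an RFX site, GGCAAC on the other strand). The bHLH letters CAGATG or CATCTG were in none of the 11 windows of the 7 genes matched in the table.
Neurod1 (chr2:79456587-79456886, minus strand): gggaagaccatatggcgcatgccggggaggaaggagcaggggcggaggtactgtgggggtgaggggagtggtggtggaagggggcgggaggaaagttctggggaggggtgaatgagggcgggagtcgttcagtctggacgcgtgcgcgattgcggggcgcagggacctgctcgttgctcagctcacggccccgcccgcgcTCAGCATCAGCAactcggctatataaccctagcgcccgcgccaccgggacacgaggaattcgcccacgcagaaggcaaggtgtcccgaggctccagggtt
Foxa2 (chr2:148045899-148046198, minus strand): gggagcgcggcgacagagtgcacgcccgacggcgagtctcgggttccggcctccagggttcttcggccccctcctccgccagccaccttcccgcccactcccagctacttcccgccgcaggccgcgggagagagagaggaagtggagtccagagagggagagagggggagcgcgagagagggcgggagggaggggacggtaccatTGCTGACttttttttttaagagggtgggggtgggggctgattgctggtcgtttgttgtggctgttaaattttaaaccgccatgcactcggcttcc
Foxa2 (chr2:148046920-148047219, minus strand): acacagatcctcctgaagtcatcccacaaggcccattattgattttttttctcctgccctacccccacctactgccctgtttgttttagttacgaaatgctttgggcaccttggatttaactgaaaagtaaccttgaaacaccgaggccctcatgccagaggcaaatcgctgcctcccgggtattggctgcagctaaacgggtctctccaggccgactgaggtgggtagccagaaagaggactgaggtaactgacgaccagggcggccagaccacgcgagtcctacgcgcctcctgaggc
Myt1 (chr2:181766779-181767078, plus strand): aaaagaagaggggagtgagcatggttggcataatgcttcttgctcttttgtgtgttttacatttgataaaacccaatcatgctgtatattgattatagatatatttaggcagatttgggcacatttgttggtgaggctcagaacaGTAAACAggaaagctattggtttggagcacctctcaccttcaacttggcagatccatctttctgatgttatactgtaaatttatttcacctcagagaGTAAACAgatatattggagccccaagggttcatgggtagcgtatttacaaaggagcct
Rfx3 (chr19:28011117-28011416, minus strand): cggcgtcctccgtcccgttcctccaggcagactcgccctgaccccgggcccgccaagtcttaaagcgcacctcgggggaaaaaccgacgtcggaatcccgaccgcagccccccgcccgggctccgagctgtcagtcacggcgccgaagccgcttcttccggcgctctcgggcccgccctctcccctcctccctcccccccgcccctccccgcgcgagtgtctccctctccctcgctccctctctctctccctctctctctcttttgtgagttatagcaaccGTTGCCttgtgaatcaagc
Rfx6 (chr10:51685268-51685567, plus strand): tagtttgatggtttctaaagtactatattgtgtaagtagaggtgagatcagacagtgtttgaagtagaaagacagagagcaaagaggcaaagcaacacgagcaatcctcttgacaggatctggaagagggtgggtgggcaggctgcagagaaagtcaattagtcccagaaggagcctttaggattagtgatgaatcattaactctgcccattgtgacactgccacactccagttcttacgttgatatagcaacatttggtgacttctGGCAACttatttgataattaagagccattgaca

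With positions counted from the start, negative before it, both MafA summits lay inside the window at Myt1, at -102 and -145 in replicates 1 and 2, and at Rfx6, at -151 and -168. At Rfx3 they lay at -261 and -226, so that of replicate 2 fell inside the window. At Neurod1 they lay at -442 and -450, outside the printed stretch. At Foxa2 the region overlapped both windows shown but held 1 start, the outer one, with the summits at 377 and 399 from it. From the inner start, which lay outside the region, they were at -644 and -622. The windows at Myt1 and Rfx6 were poor in G and C, with 39.3% and 42.3% and with 1 and 2 CG pairs. Those at Neurod1, Rfx3 and the inner start of Foxa2 had 66.7%, 68.0% and 64.0% with 26, 31 and 23 CG pairs, and the outer start of Foxa2 had 54.3% with 12, against a median of 52.7% over 32851 promoters.

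The letters TGCTGA occurred in 2 of the 6 windows of these genes under a MafA region. They occurred in 19.5% of all promoters and in 19.9% of promoters under a MafA region. Neurod1 held the letters as TCAGCA, back to back, at -44 and -50 from the start and 394 to 408 bases from the summits. Foxa2 held TGCTGAC at -45 from the inner start and 580 and 602 bases from the summits, and 4.67% of all promoters hold that longer form. The window at the outer start of Foxa2 held none of the letters searched. The Myt1 window held GTAAACA at 2 places, 1 of them under the summit of replicate 1 and 43 bases from that of replicate 2. TGTTTAC or its reverse complement occurred in 3.65% of all promoters and in 3.12% of those under a MafA region. GTTGCC or its reverse complement, in 12.5% of all promoters, occurred at Rfx3 and Rfx6, between 170 and 294 bases from the summits. A match of so few letters is a description and shows no binding.

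Among the bHLH genes, Neurod1 carried 7 MafA regions and Neurog3 carried no MafA peak in either replicate. The nearest region to Neurog3 was 57.9 kb from the gene, with fold enrichment of 4.72 and 8.80. Neurod1 lies on chromosome 2 from 79452637 to 79456636. Its strongest region, from 79498777 to 79500082, had 8.47 and 10.6 in replicates 1 and 2 (mean 9.55 ± 1.53, SD, n = 2), with 55 and 102 fragments, and lay 43.0 kb upstream of the start. The region from 79415781 to 79416742, with 5.83 and 11.1, and that from 79409251 to 79411494, with 6.84 and 7.93, lay nearest to the gene Cerkl. Of the 7 regions, 4 were nearest to Cerkl. A region 2.57 kb past the end of Neurod1 had 4.33 and 10.3, and its summits lay at different positions, 79449428 and 79448213. The region over the start, from 79456508 to 79457351, was the weakest of the 7, with 2.74 and 3.68.

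Among the zinc finger genes, MafA regions lay at 2 starts of Myt1, inside St18 and away from Insm1. Insm1, a repressor in endocrine and neuroendocrine cells, lies on chromosome 2 from 146221997 to 146225020. Its 3 regions lay side by side between 29.0 and 33.8 kb from the gene, all inside the neighbour Ralgapa2. The strongest, from 146254001 to 146255979, had 8.27 and 11.9 (mean 10.1 ± 2.57, SD, n = 2), with 46 and 127 fragments. The others had 7.96 and 6.83, and 6.65 and 5.75. Over the H3K4me3 region of Insm1 itself, MafA peaks of 2.25 and 2.08 were called in replicate 2 alone.

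Myt1 lies on chromosome 2 from 181763332 to 181827775. Its strongest region, from 181758390 to 181759448, had 4.93 and 9.65 (mean 7.29 ± 3.34, SD, n = 2) and lay 4.32 kb upstream of the outer start. The region over the internal start shown above, from 181766384 to 181767691, had 5.10 and 5.36, with 133 and 300 fragments, the most of any MafA region at Myt1. It overlapped the H3K4me3 region there. Near the outer start, a MafA region with 3.44 and 5.81 overlapped a narrow H3K4me3 region of 0.532 kb with 3.48 and 3.54, the lowest of the 14 H3K4me3 regions. By ratio, the replicates were furthest apart in the region from 181722174 to 181722683, with 6.83 and 2.43, where the value of replicate 2 was near the limit of the list (−log10 q of 2.08).

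St18, also called Myt3, is the longest of the genes, on chromosome 1 from 6487231 to 6860940. All 4 of its regions lay inside the gene. The strongest, from 6510042 to 6511707, had 10.4 and 12.8, with 67 and 145 fragments, and its mean of 11.6 ± 1.68 (SD, n = 2) was the highest outside Rfx3. The region from 6728997 to 6730159 had 4.38 and 4.54 and overlapped the edge of an H3K4me3 region of 6.92 kb (6729160 to 6736076, 9.41 and 8.81). The MafA summits there lay 131 kb from the nearer end of the gene. The H3K4me3 region was not within 1 kb of either end, so St18 was not counted as marked at a start. Whether an internal start lies there could not be checked, since no start sites of St18 were given. The remaining regions had 6.75 and 5.69, and 5.84 and 7.11.

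Of the forkhead genes, Foxa2 had MafA regions and Foxa1 had none. Foxa2, on chromosome 2 from 148042877 to 148046969, had 4 MafA regions, and every one was called in both replicates with no unmatched peak in the window. The strongest, from 147999737 to 148000447, had 6.30 and 7.70 (mean 7.0 ± 0.985, SD, n = 2), with 23 and 52 fragments, and lay 42.4 kb downstream of the gene. That from 147992824 to 147993987 had 5.19 and 6.66, with 77 and 204 fragments. The region at the start, from 148046069 to 148047117, had 5.47 and 4.59, with 89 and 214 fragments. Foxa1, on chromosome 12 from 57540628 to 57548029, had 1 MafA peak of 2.82 in replicate 1 with 15 fragments, and none in replicate 2. The nearest region to Foxa1 lay 254 kb away. A difference of MafA binding between Foxa1 and Foxa2 was not tested, and a peak missing from a list of this depth does not show that MafA is absent.

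Rfx6, which acts in islet cell formation, lies on chromosome 10 from 51677760 to 51730429 and had 6 MafA regions. The strongest, from 51767760 to 51769512, had 7.26 and 12.9 (mean 10.1 ± 3.99, SD, n = 2), with 39 and 137 fragments, and lay 37.3 kb past the end of the gene. The region inside the gene from 51694809 to 51696401 had 9.64 and 9.49, with 56 and 91 fragments, and its replicates differed the least of the 6. The region over the internal start shown above, from 51685172 to 51685583, had 11.9 and 4.82, with 36 and 27 fragments. No H3K4me3 region overlapped it or any other MafA region in this window. The H3K4me3 region of Rfx6 lay instead at the outer start, from 51676453 to 51679093.

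Rfx3, known for its control of cilium genes and of beta cell maturation, held the most MafA regions, among them both the strongest and the weakest of the 42. The gene lies on chromosome 19 from 27761721 to 28014669, and all 14 regions lay inside it. The strongest, from 27903504 to 27906240, had 15.4 and 17.2 (mean 16.3 ± 1.29, SD, n = 2), with 647 and 1436 fragments, and stood at percentile 95.7 of all MafA regions. Next to it, from 27906503 to 27907808, a region had 8.80 and 11.6, with 187 and 481 fragments. The third, from 27818846 to 27820425, had 8.04 and 10.00, with 106 and 274 fragments. The region at the RefSeq start shown above, from 28010636 to 28012584, lay 3.26 kb inside the outer 5′ end of the gene and had 5.69 and 5.10 but 695 and 1508 fragments, the most of any of the 42 regions. Its modelled background was also the highest, 121 and 220.0 in pileup units after library scaling. The weakest had 1.95 and 2.59, and 7 of the 14 lay under the 20th percentile, against 2 of the 28 regions at the other genes. At a higher background a peak passes the same p limit at a lower fold enrichment, so these counts are not of peaks held to an equal limit.

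The modelled background at Rfx3 was raised in all 4 lists. Background is given in pileup units after library scaling, whereas fragments are counted before it, so their ratio is not the fold enrichment. At the Rfx3 peaks the median background was 14.0 and 20 in MafA replicates 1 and 2, 4.0 and 3.65 times the medians of the lists. It was 2.75 and 2.50 times the median on the rest of chromosome 19. At peaks of the other factor genes the medians were 4.21 and 7.30. For H3K4me3 the 1 peak at Rfx3 had a background of 189 and 181, against medians of 16 and 16.2 at the other genes. It had 10893 and 3526 fragments at its summit. That peak lay at the internal start, where the MafA background, 121 and 220.0, was also far above the MafA medians at Rfx3. The H3K4me3 values at Rfx3 thus rest on 1 site. The stretch with at least 3 times the list's median in both MafA replicates ran from -1.75 to 0.75 Mb of the 5′ end of Rfx3, counted along the reference. In its 10 bins of 250 kb, which held between 3 and 21 peaks each, the ratios lay between 3.10 and 6.50. In bins more than 3 Mb below or 2 Mb above that end, the ratios had a median of 1.00 and reached 2.80. H3K4me3 bins of the same stretch, that of the Rfx3 peak among them, held 1 to 3 peaks each where any were found. Their ratios ran from 2.09 to 11.6, and those of the outer H3K4me3 bins reached 2.65. The lists do not name the control library, and a shared control would make these values dependent on each other. With fragments and background at Rfx3 divided by these ratios, 9 of its 14 regions still passed the lowest −log10 p of both lists. What raised the background was not tested.

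**Figure D4:**
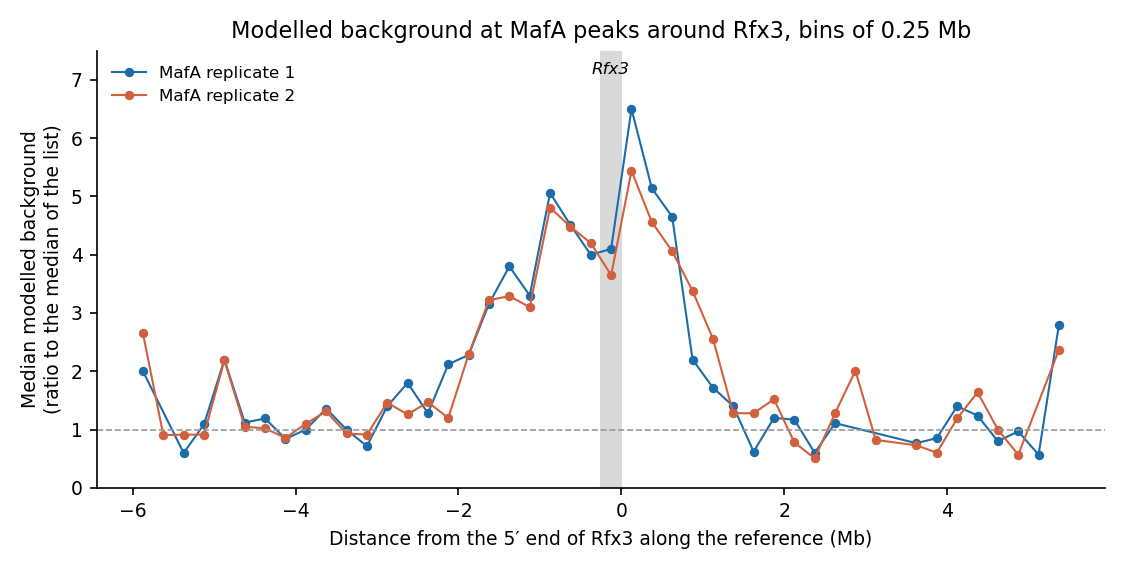
Median modelled background at MafA peaks in bins of 250 kb (0.25 Mb), as a ratio to the median of the list, against distance in Mb from the 5′ end of Rfx3. Blue is MafA replicate 1, orange replicate 2, the grey band is the gene and the dashed line is a ratio of 1. Both lines stay above 3 from -1.75 to 0.75 Mb.

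The order of the regions depended on the measure. By fold enrichment, the strongest region of each gene had a median of 10.1 over the 7 genes. When the region with the most fragments was taken instead, the median fold enrichment was 5.39. The choice moved to a region at a start for Foxa2, Myt1 and Rfx3, to the region at the internal H3K4me3 for St18, and to a region in Cerkl for Neurod1. Of the 42 regions, 7 overlapped an H3K4me3 region (16.7%, 95% Wilson interval 8.32 to 30.6%, counting error only), against 23.5% of all MafA regions. Among the 16020 strongest peaks of each library by fold enrichment, which left 18 regions, the share was 0%. The share over all MafA regions is not given for this cut, which removes regions of low fold enrichment. The 0% is therefore not a result about these genes. The fold enrichment of the 7 ranged from 3.21 to 5.39 with a median of 4.62. The other 35 had a median of 6.47, and over all MafA regions the medians were 4.40 and 6.14. Without Rfx3, 6 of 28 regions (21.4%) overlapped one.

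**Figure D5:**
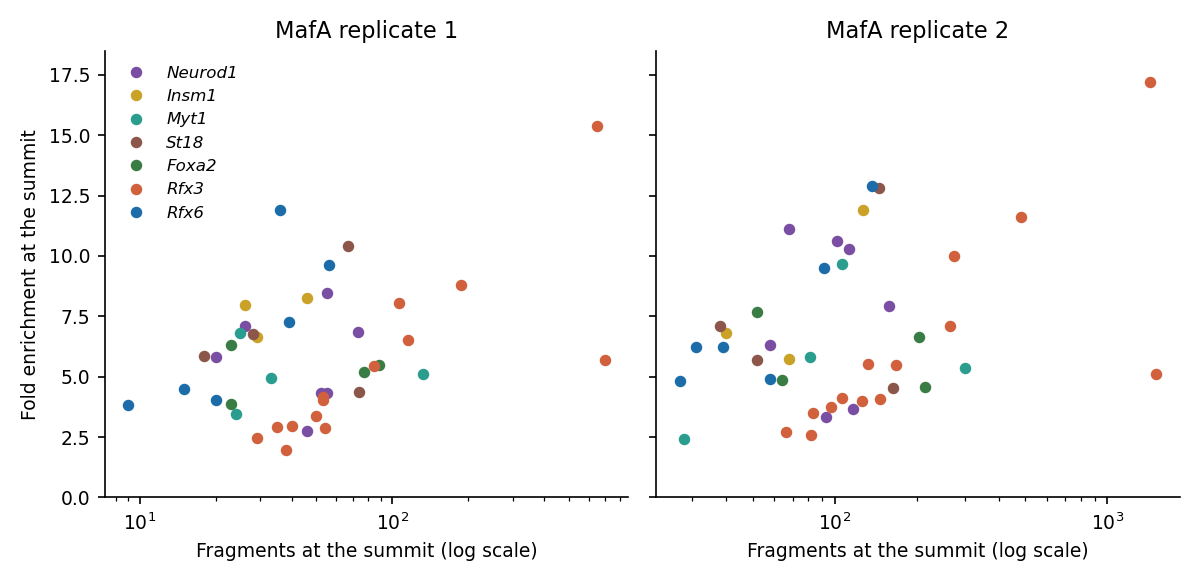
Fragments at the summit (log scale) against fold enrichment for the 42 MafA regions, in replicate 1 (left) and replicate 2 (right), coloured by gene. In replicate 1 the Rfx3 points at the far right had 647 and 695 fragments, with fold enrichment of 15.4 and 5.69.

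Replicates of MafA mostly gave similar fold enrichment at these genes. The median absolute log2 ratio of replicate 2 to replicate 1 was 0.31, against 0.28 over all MafA regions. Replicate 2 was the higher in 31 of 42 regions and in 61.6% of all regions. In 3 regions, at Neurod1, Myt1 and Rfx6, the replicates differed by more than 2 times (2.37, 2.81 and 2.47 times), which makes 3 of 42 against 2.41% of all regions.

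The lists of the 2 targets were compared over the 9 windows pooled. The windows held 52 and 60 MafA peaks against 16 and 17 H3K4me3 peaks, a mean difference of 39.5. With each list limited to its 16020 strongest peaks the difference was 7.5, and the whole MafA lists were also longer than those of H3K4me3. MafA peaks were narrower, with a median width of 622 and 834 bp against 1948 and 2049 bp, as over the whole lists, where it was 556 and 651 bp against 1716 and 1674 bp. Summits within 1 kb of an end of any protein-coding gene made up 7.69% and 11.7% of MafA peaks and 37.5% and 35.3% of H3K4me3 peaks, a difference of -26.7 percentage points. Over the whole lists the shares were 12.8% and 15.3% for MafA and 63.3% and 60.8% for H3K4me3, so each of the 3 contrasts had the same direction in the whole lists. In each of the 3 measures the libraries of one target did not overlap those of the other, with SDs (n = 2) of 5.66 and 0.707 peaks, 149.9 and 71.1 bp, and 2.81 and 1.56 points for MafA and H3K4me3. A two-sided exact permutation test over the libraries gave p = 0.333 each time, which is its lowest value at this size, and 0.05 could not be reached.

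Other genes of the same families and their partners were examined as a list of 31. An H3K4me3 region within 1 kb of a start was found at 25 of them, against 57.8% of all protein-coding genes. A MafA region lay in the window of 26 of them (83.9%). The background for a MafA region was 66.1% of all protein-coding genes and 84.2% of those marked by H3K4me3 at a start. All 5 genes without a region were neural bHLH genes: Neurog1, Neurog2, Neurod2, Neurod4 and Neurod6, of which Neurog2 alone was marked by H3K4me3. The 9 other bHLH genes, which include the broadly expressed partners Tcf3 and Tcf12 and the inhibitors Id1 to Id4, had regions. So did all 5 zinc finger and corepressor genes, all 6 forkhead genes and all 6 RFX genes. The highest fold enrichment was at Hes6, with 38.5 and 37.5 in replicates 1 and 2, percentile 99.9 of all MafA regions. Next came Rfx4 with 16.4 and 21.7, Myt1l with 14.5 and 23.5, Tcf4 with 13.7 and 18.1, and Foxp2 with 13.5 and 16.4. The means of these 5, the highest of the 26 genes with a region, ran from 15.0 to 38.0, and the lowest of the 26 was 2.69, at Rcor2. The strongest regions of the 7 endocrine factor genes with a region had a median of 10.1, with 16.3 at Rfx3 and at most 11.6 at the others. Since the 5 were picked for high values, they do not rank one list of genes against the other, and a difference between the lists was not tested.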

How the data were processed

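CUT&RUN libraries from MIN6 cells were sequenced as 150 bp pairs, per the labels' protocols. The deposited files were MACS2 narrow peak lists, 1 per library, on GRCm38 (mm10), per the submitters' processing notes. The aligner, MACS2 version, duplicate handling and control library are not given in the sources used here. Fold enrichment was deposited as the ratio, not logged, of pileup over modelled background at a summit. The deposited −log10 p and −log10 q values are those of the summit, and no −log10 q was under 2.0. The deposited score was not used.

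Positions were made 1-based. Gene positions, and starts where given, came from RefSeq tables of GRCm38.p6. Start sites were given for 7 of the 9 genes, and either end was used for Insm1 and St18. Fragments at summits were recovered from fold enrichment (pseudocount 1) and −log10 p (relative tolerance 0.0001), with library scaling factors of 0.415 and 0.997 for H3K4me3 and 1.00 and 0.746 for MafA, and solved 100% of peaks. On simulated peaks, made with the same formulas and whole-number backgrounds, the recovery returned 100% of fragments. This checks the calculation and not whether the deposited values follow those formulas. Fragments are counts before the scaling factor, and the modelled background is in pileup units after it. Groups came from the sample titles. The genes and lists were chosen with earlier results of these data known. The named regions are the up to 3 strongest per gene and those at starts, and of the related genes the 5 strongest and those with no region. One gene of the planned list of related genes is not reported here, and the counts are without it. Other regions (unmatched replicates, the weakest, overlaps with H3K4me3) were singled out after their values were seen. Motifs were searched in promoters, since no genome sequence was used here. Other settings tried were −log10 q ≥ 5, the 16020 strongest peaks per library, 50% reciprocal overlap, windows of 10 and 100 kb, the nearest gene, summits, 500 bp and 2 kb to starts, each library left out in turn, and a replicate block. Calculations ran in Python 3.11.15 with scipy 1.17.1, numpy 2.4.6 and pandas 2.3.3.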

Additional observations from a re-analysis of the deposited data

How the results depend on the processing

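The number of MafA regions in the windows, 42, was 18 for the 16020 strongest peaks of each library and 26 with 10 kb either side, as fewer peaks entered. It was between 34 and 63 under the other planned settings. Leaving out a MafA library gave 52 and 60, since single lists were then counted. Without Rfx3 it was 28, and with Rfx3 scaled to the background of the list 37, both chosen after seeing the data. The share of MafA regions over H3K4me3 regions, 16.7%, was 0% for the strongest peaks, and leaving out each library gave 15.4 to 19%. The share over all MafA regions is not given for the strongest peaks. The median over genes of the strongest region, 10.1, was 5.39 when the region was chosen by recovered fragments. Insm1 had no region with 10 kb either side or where it had to be the nearest gene, and Myt1 had none among the strongest peaks. With 100 kb either side Neurog3 had 4 regions, and Foxa1 still had none. Of 60 values of single genes, 8 shifted beyond 1 SD of the replicates. Leaving out 1 of 2 replicates cannot shift the mean of the same region by 1 SD. Such values could pass that limit only where another region was then the strongest. The strongest region near Insm1 was 21.3 with 100 kb either side. The 7 genes marked by H3K4me3 at a start were 7 in number under all 7 alternatives run.

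The differences between MafA and H3K4me3 kept their sign under every alternative run, with 7.5 (16020 strongest) to 58.5 peaks (100 kb), -1974 to -709 bp and -33.2 to -11.1 percentage points, and their exact p could not pass 0.05. Blocking on the replicate number left them at 39.5 peaks, -1270.2 bp and -26.7 points, and the exact permutation p was then 0.5, its lowest value. No label says that equal numbers pair libraries. The motif alternatives around summits need genome sequence and were not run. Depth limits what a missing peak shows: the unmatched peak at Foxa1 had 15 fragments.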
